A study of Mus musculus with 34 samples.

Results

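The 10 genes described here carry out MHC class I antigen presentation, and they were taken out of 23109 genes measured by RNA-Seq in immortalized mouse brown preadipocytes. They encode 4 class I heavy chains (*H2-K1*, *H2-D1*, *H2-Q6*, and *H2-T23*), the light chain β2-microglobulin (*B2m*), the peptide transporter and its adaptor (*Tap1*, *Tap2*, and *Tapbp*), and 2 catalytic subunits of the immunoproteasome (*Psmb8* and *Psmb9*). The genes were listed by name, and each was represented by the RefSeq transcript with the highest mean RPKM over 14 libraries. RPKM divides the reads of a transcript by its length in kilobases and by the library's mapped reads. The set was partly selected on the RPKM of *H2-Q6*, which was higher in cells with H3.3K36M and, at D2 of adipogenesis, in Nsd2 knockdown (KD) cells, so the ratios of K36M to WT and of KD to control cells are given below as a description.

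Class I molecules display short peptides from inside the cell to CD8+ T cells and natural killer cells. The proteasome cuts proteins into peptides, the TAP transporter moves these into the endoplasmic reticulum, and tapasin holds empty heavy chains beside TAP until a peptide has bound. Heavy chains reach the cell surface bound to β2-microglobulin. Interferons raise most genes of this pathway through IRF transcription factors and the transactivator NLRC5, and fibroblast-like cells such as preadipocytes carry the pathway at a basal level.

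All cells came from interscapular brown adipose tissue of newborn C57BL/6J mice and were immortalized with SV40T. The sample labels describe GR-flox/flox cells, meaning a floxed glucocorticoid receptor gene, that received retroviral Vec or Cre, without saying which of these applied to a given library, whereas the study's methods describe WT newborn mice. In the first experiment, cells that received histone H3.3 by retrovirus, as WT or as the K36M mutant, were collected at D0, D2, and D7 of adipogenesis. H3.3K36M is a mutant that lowers methylation of histone H3 lysine 36 throughout the cell. In the second experiment, sub-confluent WT and K36M cells that also carried ectopic PPARγ received DMSO or rosiglitazone (Rosi), a PPARγ ligand, and the labels give 0 h for DMSO and 24 h for Rosi. In the third, cells with lentiviral shRNA, either a control (Ctrl) or one that targets the H3K36 methyltransferase Nsd2, were collected at D0 and D2. The shRNA used for these libraries is not named in the labels. Each of the 14 conditions had 1 library, so no difference below has a replicate check and no test between conditions was possible.

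Mapped reads ranged from 12213559 to 24365867 per library, and 3 reads of a transcript of 1 kb corresponded to between 0.123 and 0.246 RPKM. The 95% intervals in brackets after ratios reflect the error of counting reads alone, so they apply to a pair of libraries and not to the conditions behind them. *Nsd2* was at 19.9 and 29.0 RPKM in Ctrl cells at D0 and D2 and at 5.85 and 7.01 RPKM in KD cells. The summed RPKM of 7 preadipocyte markers lay between 53.3 and 1849, and that of 7 brown adipocyte markers between 33.9 and 3567. Of the highest brown adipocyte sum, in WT cells at D2, *Fabp4* made up 3249 RPKM. *Ucp1* and *Cidea* in that list were at or below 0.1942 and 0.09727 RPKM in every library. Among leukocyte markers *Ptprc* was at or below 0.0391 RPKM and *Adgre1* at or below 0.0759 RPKM in every library. The 8 leukocyte genes measured summed to between 0.455 RPKM in WT cells at D2 and 8.28 RPKM in KD cells at D0, of which *Cd14* made up 7.97 RPKM. The 4 endothelial genes measured summed to between 0.131 RPKM in KD cells at D2 and 2.47 RPKM in K36M cells at D7. In the latter library *Tek* made up 2.08 RPKM, while *Pecam1* was at or below 0.269 RPKM throughout. In bulk RNA, fewer cells of a type and less RNA per cell cannot be told apart.

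On the NCBIM37 build, which is the mm9 build named for the files, 9 of the 10 genes lay on chromosome 17, between positions 34052844 and 36169800. From the proximal end these were *Tapbp* (chr17:34052844-34066235, plus strand), *H2-K1* (chr17:34132962-34137278, minus strand), *Psmb9* (chr17:34318932-34324697, minus strand), *Tap1* (chr17:34324498-34334170, plus strand), *Psmb8* (chr17:34334666-34338399, plus strand), *Tap2* (chr17:34340472-34353266, plus strand), *H2-D1* (chr17:35399675-35404444, plus strand), *H2-Q6* (chr17:35561795-35567000, plus strand), and *H2-T23* (chr17:36166718-36169800, minus strand). *B2m* lay on another chromosome (chr2:121973422-121978819, plus strand). In these GENCODE M1 models *Psmb9* and *Tap1* overlap at their 5′ ends on opposite strands. The library kit marks no strand, so reads from the overlap cannot be assigned to either gene by strand.

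Heavy chain genes resemble each other closely, which bears on every value of *H2-Q6*. The first 100 bases of exon 3, which encodes the α2 domain of the peptide-binding groove, are shown for the 4 heavy chain genes and for *H2-Q7*, the neighbour of *H2-Q6*. Capitals mark bases that differ from *H2-K1*. The sequences were read from the NCBIM37 genome in the direction of the gene, and they span chr17:34136392-34136491 for *H2-K1* (minus strand), chr17:35400784-35400883 for *H2-D1* (plus strand), chr17:35562516-35562615 for *H2-Q6* (plus strand), chr17:35576854-35576953 for *H2-Q7* (plus strand), and chr17:36168759-36168858 for *H2-T23* (minus strand).
H2-K1: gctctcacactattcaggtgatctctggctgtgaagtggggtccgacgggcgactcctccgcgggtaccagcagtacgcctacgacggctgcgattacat
H2-D1: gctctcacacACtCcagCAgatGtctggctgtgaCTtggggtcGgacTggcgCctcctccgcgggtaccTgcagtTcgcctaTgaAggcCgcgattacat
H2-Q6: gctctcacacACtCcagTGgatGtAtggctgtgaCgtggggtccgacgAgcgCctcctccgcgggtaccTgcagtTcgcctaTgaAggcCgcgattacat
H2-Q7: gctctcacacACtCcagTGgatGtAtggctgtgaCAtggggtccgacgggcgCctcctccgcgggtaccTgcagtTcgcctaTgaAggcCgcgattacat
H2-T23: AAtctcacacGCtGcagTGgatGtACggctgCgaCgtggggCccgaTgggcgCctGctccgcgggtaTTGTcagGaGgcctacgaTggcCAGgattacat
Over these 100 bases *H2-D1* differed from *H2-K1* at 16 positions, *H2-Q6* and *H2-Q7* at 15 each, and *H2-T23* at 26. Over the whole exon *H2-Q6* was 86.2% identical to *H2-K1*, 87.7% to *H2-D1*, 72.1% to *H2-T23*, and 94.9% to *H2-Q7*, with 14 differing bases in the last case.

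A count of shared sequence was made for each transcript, as the share of its 50-base windows that occur unchanged in a transcript of another gene. For *H2-Q6* this was 36.8% of windows, with 30.5% found in *H2-Q7*, 13.1% in *H2-Q8*, 11.9% in *H2-D1*, and 4.94% in *H2-K1*. It was 8.87% for *H2-K1*, 17% for *H2-D1*, and 29.2% for *H2-T23*. *B2m* shared no window, and *Tap1* shared 6.47%, most of it with *Psmb9* (5.61%) where the GENCODE models overlap. How reads that match several genes were assigned is not given in the sources used here. The RefSeq transcripts of *H2-Q7* (NM_010394) and *H2-Q9* had the same number of reads in all 14 libraries, 1883 in total for each, so these 2 genes cannot be told apart in the deposited values. The *H2-Q6* values below are therefore uncertain as to gene, and the *H2-Q* genes are given beside them.

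Promoter segments are shown for *H2-K1*, *H2-D1*, and *H2-Q6*, the heavy chain genes among the 10 that held both a kappa B-like motif and the core of an interferon-stimulated response element. They were taken from RefSeq's table on GRCm38.p6. Capitals mark, from left to right, a kappa B-like motif (GGG, any 2 bases, then TTCCC), the response element core (GAANNGAAA, here on the opposite strand), TGACG in *H2-K1* and *H2-D1*, and CCAAT on either strand. The segments are chr17:34000325-34000468 (minus strand) for *H2-K1*, chr17:35262913-35263055 (plus strand) for *H2-D1*, and chr17:35424667-35424809 (plus strand) for *H2-Q6*.
H2-K1: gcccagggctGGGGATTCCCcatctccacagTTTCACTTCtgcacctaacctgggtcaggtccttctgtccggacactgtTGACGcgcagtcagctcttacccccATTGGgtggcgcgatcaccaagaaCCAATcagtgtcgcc
H2-D1: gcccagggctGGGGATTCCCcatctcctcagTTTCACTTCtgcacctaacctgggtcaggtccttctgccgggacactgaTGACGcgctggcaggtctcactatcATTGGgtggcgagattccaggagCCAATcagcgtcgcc
H2-Q6: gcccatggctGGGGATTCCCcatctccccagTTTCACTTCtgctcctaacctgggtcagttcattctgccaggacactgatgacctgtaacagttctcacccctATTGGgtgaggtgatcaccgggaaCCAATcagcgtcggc
Among 32851 promoters of 250 bases before to 50 bases after a gene's start, 1.75% held the kappa B-like motif, 7.52% the response element core, 37.4% CCAAT, 20.8% TGACG, and 8.3% TTCNNNGAA, a gamma activated site motif, all counted on both strands. Of the 9 genes described here with an entry in that table, *H2-K1*, *H2-D1*, and *H2-Q6* held both the kappa B-like motif and the response element core. CCAAT was found in 8 of the 9, TGACG in *H2-K1*, *H2-D1*, *B2m*, *Tap1*, and *Psmb9*, and TTCNNNGAA in *Psmb8*. The starts of *Tap1* and *Psmb9* in that table lay 226 bases apart, so their 2 promoter windows cover much of the same sequence. From those starts the 2 genes run away from each other and do not overlap, unlike the GENCODE M1 models. These matches describe letters in a window and do not show that a factor binds there.

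**Figure D1:**
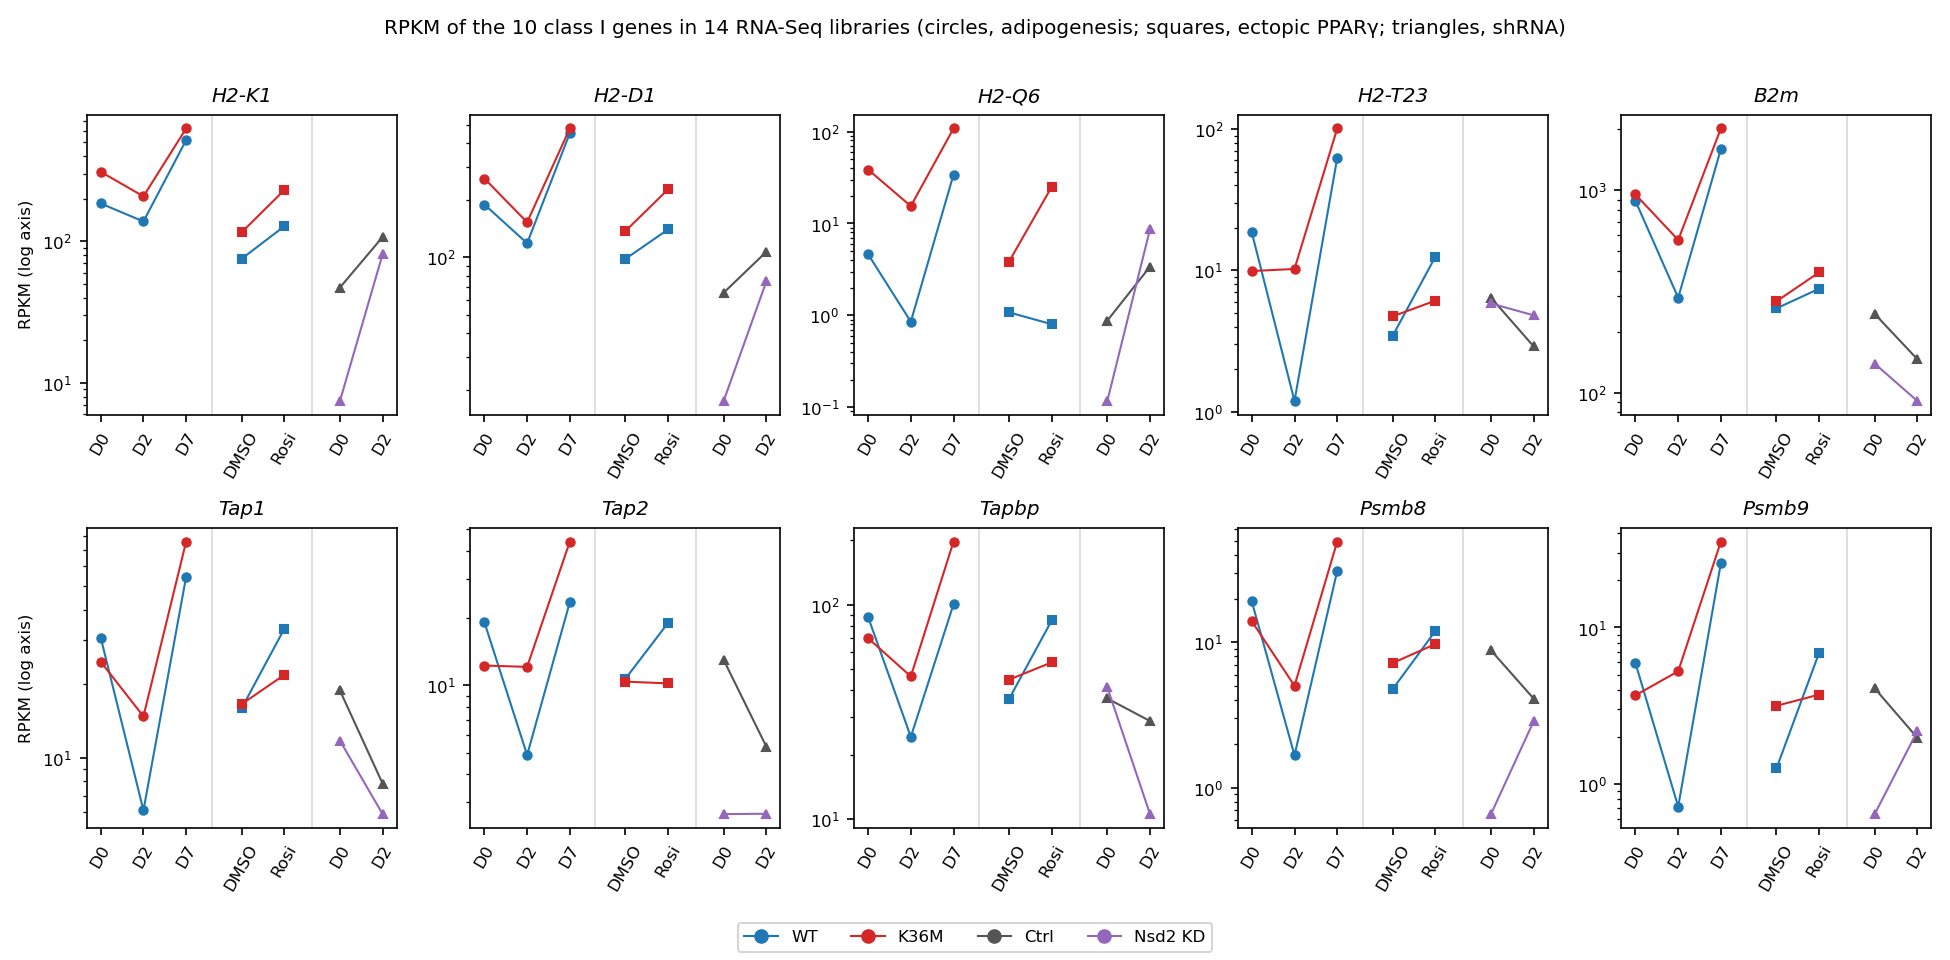
RPKM of each of the 10 genes in the 14 RNA-Seq libraries, 1 panel per gene, on a log axis with its own range in each panel; each point is 1 library, and lines join libraries of the same cells. WT cells (blue circles) are lowest at D2 in every panel among the 3 days, *H2-Q6* in K36M cells (red) lies above WT in all 5 pairs of libraries, and *H2-K1* in Nsd2 KD cells at D0 (purple) lies at 7.46 RPKM.

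*B2m* was the most abundant of the 10 genes in every library, and it stood at or above the 98.65th percentile of all genes throughout. In WT cells it was at 886, 295, and 1600 RPKM at D0, D2, and D7, and in K36M cells at 954, 568, and 2022 RPKM. With ectopic PPARγ it was at 261 and 326.5 RPKM in WT cells with DMSO and Rosi and at 283 and 393 RPKM in K36M cells. It was at 245 and 146 RPKM in Ctrl cells at D0 and D2, and at 139 and 91.0 RPKM in KD cells. The D7 libraries were therefore the highest and the KD library at D2 the lowest.

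*H2-K1* and *H2-D1* encode the classical heavy chains, which present peptides to CD8+ T cells. *H2-K1* was at 185, 138, and 518 RPKM in WT cells at D0, D2, and D7, and at 309, 207, and 625 RPKM in K36M cells. It was at 75.3 and 128 RPKM in WT cells with PPARγ and at 116 and 230 RPKM in K36M cells with PPARγ, with DMSO and Rosi in turn. In Ctrl cells it was at 47.1 and 107 RPKM at D0 and D2, against 7.46 and 81.1 RPKM in KD cells. The KD library at D0 was the lowest of the 14 for both classical genes. *H2-D1* was at 189.7, 119, and 450.3 RPKM in WT cells and at 259.7, 153, and 477 RPKM in K36M cells. In the PPARγ libraries *H2-D1* was at 98.1 and 140.3 RPKM in WT cells and at 137.5 and 228 RPKM in K36M cells. The Ctrl libraries had 65.1 and 107 RPKM of *H2-D1*, and the KD libraries 17.6 and 74.7 RPKM. *H2-K1* was thus higher in K36M than in WT cells in all 5 pairs of libraries, and *H2-D1* in 4 of them whichever scaling was used. At D7 the log2 ratio of *H2-D1* was 0.08, and it was -0.03 when the libraries were rescaled by the median ratio of all genes. Both genes were lower in KD than in Ctrl cells on both days.

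*H2-Q6* is a non-classical heavy chain gene of the Qa-2 region, and *H2-T23* encodes Qa-1, which presents leader peptides of other class I chains to natural killer cell receptors. *H2-Q6* was at 4.62, 0.854, and 34.1 RPKM in WT cells (97, 16, and 445 reads) and at 38.6, 15.5, and 108 RPKM in K36M cells (751, 190, and 1296 reads). With PPARγ it was at 1.08 and 0.801 RPKM in WT cells (23 and 13 reads) and at 3.85 and 25.1 RPKM in K36M cells (92 and 312 reads). Ctrl cells had 0.877 and 3.39 RPKM (17 and 67 reads), and KD cells 0.117 and 8.66 RPKM (2 and 150 reads). It was the gene with the widest spread, and 4 of the libraries rest on fewer than 20 reads. *H2-T23* was at 18.6, 1.19, and 62.4 RPKM in WT cells and at 9.90, 10.2, and 101 RPKM in K36M cells. In the PPARγ libraries *H2-T23* was at 3.46 and 12.5 RPKM in WT cells and at 4.74 and 6.12 RPKM in K36M cells. It was at 6.42 and 2.90 RPKM in Ctrl cells and at 5.84 and 4.81 RPKM in KD cells, so that the WT library at D2 was its lowest.

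*Tap1* and *Tap2* encode the subunits of the TAP transporter, and *Tapbp* encodes tapasin. *Tap1* was at 30.8, 6.10, and 54.5 RPKM in WT cells, at 24.6, 14.7, and 75.8 RPKM in K36M cells, at 18.8 and 7.84 RPKM in Ctrl cells, and at 11.7 and 5.89 RPKM in KD cells. *Tap2* was at 19.2, 4.88, and 23.6 RPKM in WT cells, at 12.3, 12.1, and 44.2 RPKM in K36M cells, at 13.03 and 5.32 RPKM in Ctrl cells, and at 2.65 and 2.66 RPKM in KD cells. *Tapbp* was at 87.6, 24.2, and 100.6 RPKM in WT cells, at 69.8, 46.3, and 197 RPKM in K36M cells, at 36.6 and 28.7 RPKM in Ctrl cells, and at 41.2 and 10.6 RPKM in KD cells. *Tapbp* in KD cells at D0 was thus at the level of the Ctrl library, unlike *Tap2*. With DMSO and Rosi, WT cells had 15.9 and 33.5 RPKM of *Tap1*, 10.7 and 19.1 RPKM of *Tap2*, and 36.3 and 84.6 RPKM of *Tapbp*. K36M cells under the same treatments had 16.5 and 21.7 RPKM of *Tap1*, 10.4 and 10.2 RPKM of *Tap2*, and 44.7 and 53.9 RPKM of *Tapbp*.

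*Psmb8* and *Psmb9* encode the immunoproteasome subunits that take the place of *Psmb5* and *Psmb6* products and alter which peptides are cut. *Psmb8* was at 19.2, 1.67, and 31.1 RPKM in WT cells, at 14, 5.02, and 49.5 RPKM in K36M cells, at 8.81 and 4.10 RPKM in Ctrl cells, and at 0.657 and 2.87 RPKM in KD cells. *Psmb9* was at 5.92, 0.714, and 25.9 RPKM in WT cells, at 3.69, 5.25, and 35.5 RPKM in K36M cells, at 4.08 and 1.97 RPKM in Ctrl cells, and at 0.641 and 2.18 RPKM in KD cells. For both genes the lowest libraries were KD cells at D0 and WT cells at D2. With DMSO and Rosi, WT cells had 4.77 and 12.01 RPKM of *Psmb8* and 1.25 and 6.90 RPKM of *Psmb9*, and K36M cells had 7.21 and 9.75 RPKM of *Psmb8* and 3.16 and 3.72 RPKM of *Psmb9*.

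The first comparison was of the days of adipogenesis. In WT cells 8 of the 10 genes fell over 2-fold from D0 to D2 and none rose, where 25.2% of all genes with reads in either library fell over 2-fold and 13.6% rose. The median log2 ratio of the 10 genes was -2.16 against 0.03 over all genes with RPKM of at least 1 in both libraries. The log2 ratio was -3.96 (95% interval -4.54 to -3.43) for *H2-T23*, -3.52 (-4.03 to -3.05) for *Psmb8*, and -3.05 (-4.10 to -2.15) for *Psmb9*. It was -2.44 for *H2-Q6*, -2.33 for *Tap1*, -1.98 for *Tap2*, -1.86 for *Tapbp*, and -1.59 for *B2m*. The classical heavy chains stayed within 2-fold, with log2 ratios of -0.42 (-0.48 to -0.37) for *H2-K1* and -0.68 (-0.73 to -0.62) for *H2-D1*. Immunoproteasome and non-classical heavy chain genes therefore had larger decreases than the classical heavy chain genes in this pair of libraries.

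From D2 to D7 all 10 genes rose over 2-fold in WT cells, where 22.4% of all genes did and 12.2% fell. The log2 ratio was 5.71 (5.19 to 6.28) for *H2-T23*, 5.32 (4.60 to 6.14) for *H2-Q6*, 5.18 (4.32 to 6.20) for *Psmb9*, and 4.22 (3.75 to 4.73) for *Psmb8*. *H2-K1* and *H2-D1* had the smallest ratios, 1.91 and 1.92. Both comparisons share the WT library at D2, so a library that was low for these genes would lower the first ratio and raise the second. The genes that fell most to D2 and rose most to D7 are not independent observations for that reason.

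K36M cells went through the same days with fewer decreases over 2-fold by D2. Of the 10 ratios 8 were below 0, with a median log2 ratio of -0.67 against -0.07 over all genes. Only *Psmb8* and *H2-Q6* fell over 2-fold from D0 to D2, with log2 ratios of -1.48 (-1.85 to -1.12) and -1.32 (-1.56 to -1.09). These 2 of 10 lie close to the share of all genes (19.6% fell and 16.5% rose). *H2-T23* had a log2 ratio of 0.05 (-0.24 to 0.33), *Tap2* of -0.02 (-0.21 to 0.17), and *Psmb9* of 0.51 (-0.05 to 1.07), each with an interval that includes 0. From D2 to D7 all 10 genes rose over 2-fold in K36M cells as well (21.5% of all genes rose and 14.9% fell), with the smallest log2 ratio, 1.59, for *H2-K1*, and with 2.81 for *H2-Q6* and 2.76 for *Psmb9*. The summed RPKM of the brown adipocyte markers at D7 was 3408 for WT and 219 for K36M cells, so the D7 libraries with high class I levels included one with high and one with low adipocyte markers. The preadipocyte markers summed to 717, 105, and 558 RPKM at D0, D2, and D7 in WT cells and to 342, 223, and 757 RPKM in K36M cells. Most of that sum was *Col1a1*, at 223 and 147 RPKM in K36M cells at D0 and D2, whereas *Ebf2* in the same list was at 8.01 and 17.8 RPKM. The part of this shift in cell state in the class I values was not tested.

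In the shRNA experiment the control cells went from D0 to D2 with a different pattern. *H2-K1* and *H2-Q6* rose over 2-fold (17.3% of all genes rose), with log2 ratios of 1.19 (1.10 to 1.27) and 1.95 (1.17 to 2.81). *Tap2*, *Tap1*, *H2-T23*, *Psmb8*, and *Psmb9* fell over 2-fold (23.4% of all genes fell), with log2 ratios of -1.29, -1.26, -1.15, -1.11, and -1.05 in that order. *H2-D1* had a log2 ratio of 0.72 and *B2m* of -0.74. In KD cells *H2-K1*, *H2-D1*, *H2-Q6*, *Psmb8*, and *Psmb9* rose over 2-fold from D0 to D2 (16.9% of all genes rose), with log2 ratios of 3.44, 2.09, 6.21, 2.13, and 1.76 in that order. *Tapbp* fell in KD cells, at -1.97 (24.5% of all genes fell). The *H2-Q6* ratio in KD cells rests on 2 reads at D0, and its interval ran from 4.33 to 9.27. Thus *H2-K1* differed in direction between WT and Ctrl cells, although both are controls, which came from different experiments.

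**Figure D2:**
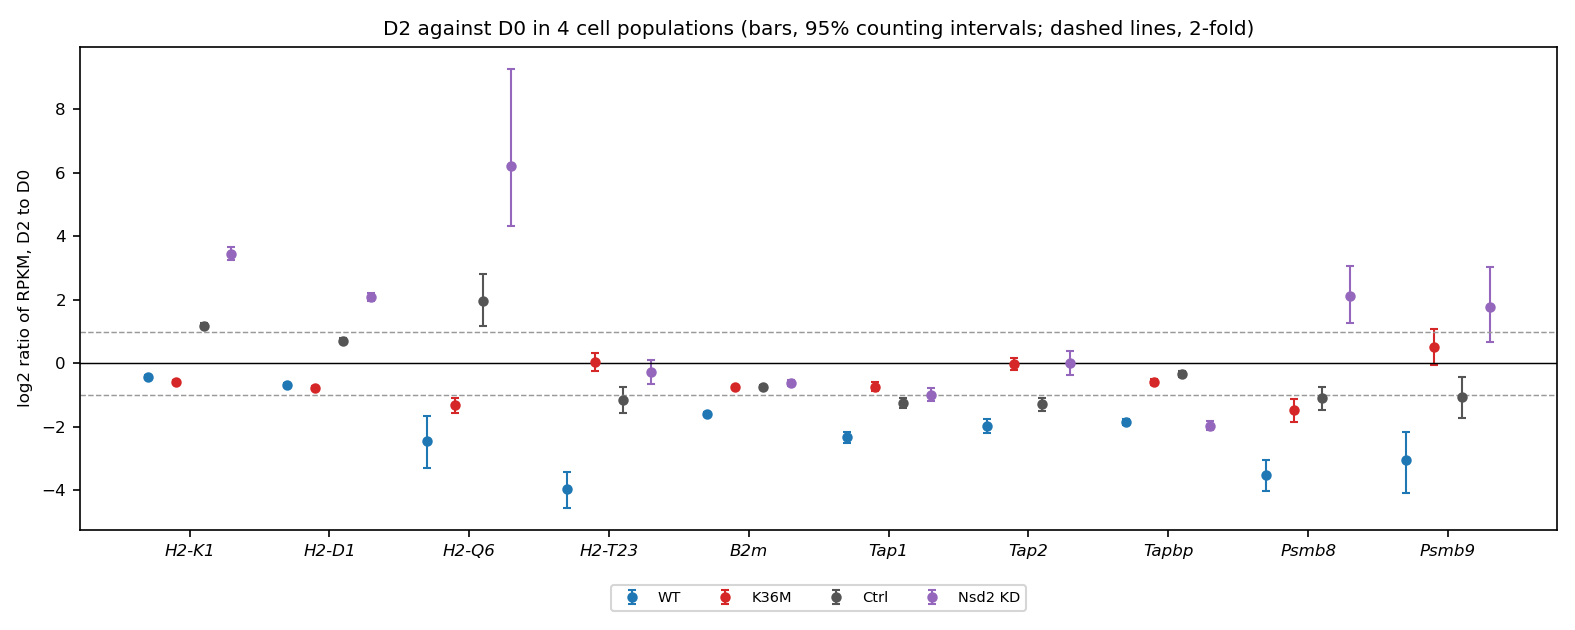
log2 ratio of RPKM at D2 to D0 for the 10 genes in WT, K36M, Ctrl, and Nsd2 KD cells; points are ratios of 1 library to 1 library, bars are 95% counting intervals, the solid line marks no difference, and dashed lines mark 2-fold. WT points lie below 0 for all 10 genes, whereas *H2-Q6* lies at 1.95 in Ctrl and at 6.21 in KD cells.

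The second comparison asked how H3.3K36M bears on the pathway. At D0 only *H2-Q6* exceeded its WT level over 2-fold in K36M cells (14.8% of all genes did) and none of the 10 was over 2-fold lower (12% were). Its log2 ratio was 3.06 (2.75 to 3.38). The classical heavy chains were at 0.74 (0.70 to 0.79) for *H2-K1* and 0.45 (0.41 to 0.50) for *H2-D1*, and *B2m* at 0.11 (0.07 to 0.14). The 6 remaining genes had negative log2 ratios, from -0.33 for *Tap1* and *Tapbp* to -0.91 (-1.13 to -0.69) for *H2-T23*. Before adipogenesis the transporter, tapasin, and immunoproteasome genes were therefore lower and the classical heavy chains higher in K36M cells, all within 2-fold.

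At D2, 6 of the 10 genes were over 2-fold higher in K36M cells, where 22.2% of all genes were, and none was over 2-fold lower (9.9% of all genes were). All 10 ratios were above 0, with a median log2 ratio of 1.29 against 0.05 over all genes. *H2-Q6* was at 4.18 (3.44 to 5.01), *H2-T23* at 3.10 (2.54 to 3.71), *Psmb9* at 2.88 (1.92 to 3.96), *Psmb8* at 1.59 (1.02 to 2.18), *Tap2* at 1.31 (1.07 to 1.55), and *Tap1* at 1.27 (1.07 to 1.47). *B2m* at 0.95 (0.89 to 1.00) and *Tapbp* at 0.94 (0.83 to 1.04) lay close to 2-fold, and *H2-K1* and *H2-D1* were at 0.59 and 0.37. This comparison uses the same WT library at D2 as the day comparisons. The brown adipocyte markers summed to 3567 RPKM in WT and 1592 RPKM in K36M cells. Most of that sum was *Fabp4*, at 3249 and 1473 RPKM. *Pparg*, *Cebpa*, and *Plin1* were also lower in K36M cells, whereas *Adipoq* was at 6.16 RPKM in WT and 10.6 RPKM in K36M cells. At D7 *H2-Q6* alone was over 2-fold higher (19.7% of all genes were), with a log2 ratio of 1.67 (1.51 to 1.83), and none was over 2-fold lower (13.2% were). *Tapbp* was at 0.97, *Tap2* at 0.90, and *H2-T23* at 0.70, and the lowest ratio was 0.08 for *H2-D1*.

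In the PPARγ cells with DMSO, *H2-Q6* was over 2-fold higher in K36M cells, at a log2 ratio of 1.84 (1.16 to 2.56), as was *Psmb9* at 1.33 (0.61 to 2.10), where 23.9% of all genes were higher and 8.31% lower. *H2-K1* and *H2-D1* were at 0.62 and 0.49, and *Tap1* and *Tap2* at 0.05 and -0.04 with intervals that include 0. With Rosi *H2-Q6* was at 4.97 (4.18 to 5.90), with 312 reads in K36M and 13 in WT cells, and 28.4% of all genes were over 2-fold higher. *H2-T23* was over 2-fold lower in K36M cells with Rosi, at -1.03 (-1.38 to -0.70), where 12.6% of all genes were lower. It was at -0.93 both after rescaling by the median ratio and with a pseudocount of 1, inside 2-fold. *Tap2*, *Psmb9*, *Tapbp*, and *Tap1* were at -0.90, -0.89, -0.65, and -0.62, while *H2-K1* and *H2-D1* were at 0.85 and 0.70. With Rosi the heavy chains other than *H2-T23* thus had ratios above 0, and the transporter, tapasin, and immunoproteasome genes had ratios below 0.

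**Figure D3:**
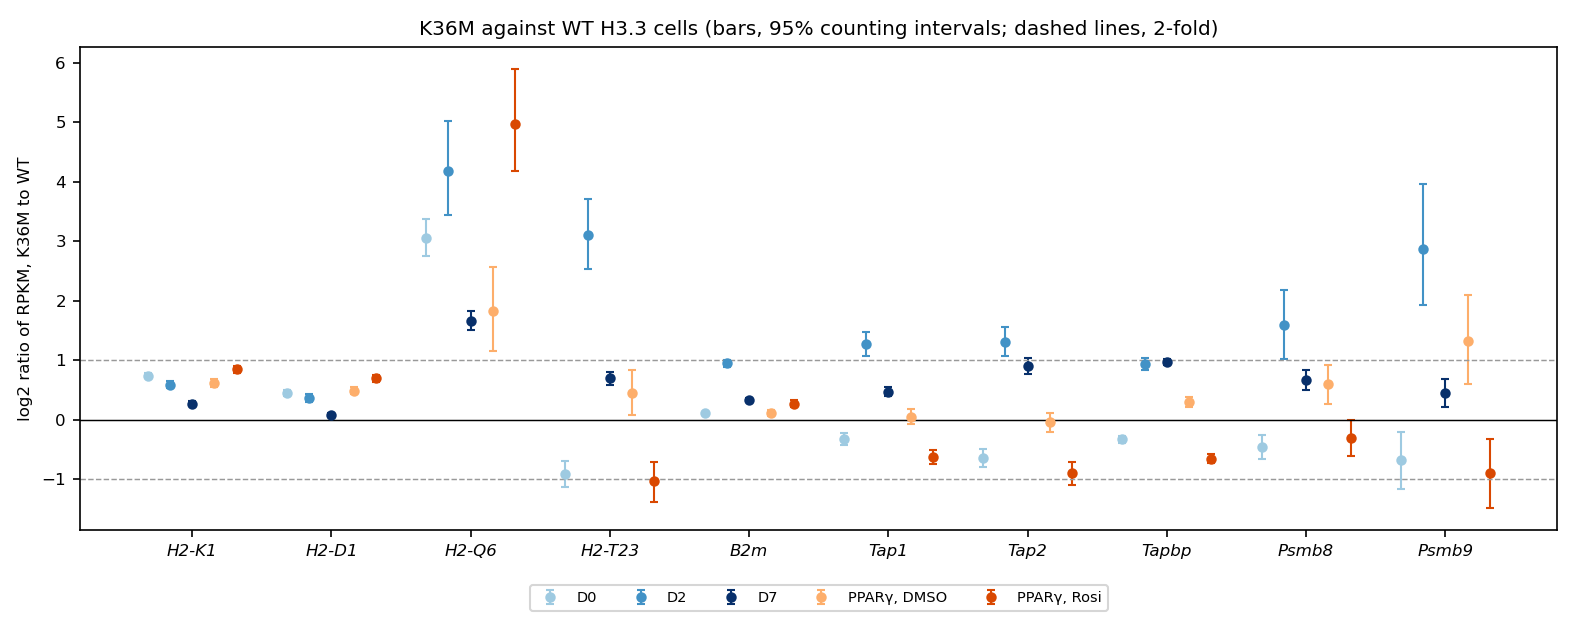
log2 ratio of RPKM in K36M to WT cells for the 10 genes at D0, D2, and D7 of adipogenesis and with ectopic PPARγ plus DMSO or Rosi; points are ratios of 1 library to 1 library, bars are 95% counting intervals, the solid line marks no difference, and dashed lines mark 2-fold. *H2-Q6* lies above the upper dashed line in all 5 pairs, and *H2-T23* lies at 3.10 at D2 but at -1.03 with Rosi.

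The third comparison was of Rosi with DMSO, which in the labels also differ by 24 h. The study's figure legend instead describes 24 h of treatment with either DMSO or Rosi. In WT cells *Psmb9*, *H2-T23*, *Psmb8*, *Tapbp*, and *Tap1* rose over 2-fold, where 17% of all genes did, and none fell over 2-fold (16.2% did). The log2 ratios were 2.46 (1.78 to 3.20), 1.86 (1.52 to 2.20), 1.33 (1.02 to 1.65), 1.22 (1.14 to 1.30), and 1.08 (0.96 to 1.19) in that order. *H2-Q6* was at -0.43 (-1.53 to 0.61), an interval that includes 0, and *B2m* at 0.32. In K36M cells *H2-Q6* rose over 2-fold, with a log2 ratio of 2.71 (2.37 to 3.06), and no other of the 10 did (18.3% of all genes rose and 15% fell over 2-fold). *H2-K1* was at 0.99 (0.93 to 1.05), close to 2-fold. *Tap2* was at -0.03 (-0.22 to 0.17) and *Psmb9* at 0.24 (-0.38 to 0.84), both with intervals that include 0. With the libraries rescaled by the median ratio *H2-K1* was at 1.02 and passed 2-fold. The brown adipocyte markers summed to 213 and 3029 RPKM with DMSO and Rosi in WT cells and to 150.2 and 1219 RPKM in K36M cells, and their part in these values was not tested. Whether Rosi acted differently in the 2 kinds of cells was not tested either.

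The fourth comparison was of KD with Ctrl cells. At D0, 6 of the 10 genes were over 2-fold lower in KD cells, where 18.1% of all genes were, and none was over 2-fold higher (13.5% were). The log2 ratio was -3.75 (-4.64 to -2.97) for *Psmb8*, -2.67 (-3.86 to -1.66) for *Psmb9*, -2.66 (-2.87 to -2.45) for *H2-K1*, -2.30 (-2.60 to -2.01) for *Tap2*, and -1.89 (-2.03 to -1.75) for *H2-D1*. *H2-Q6* was at -2.91 with a wide interval (-6.06 to -0.83), from 2 reads against 17. *B2m* and *Tap1* were at -0.82 and -0.68, *H2-T23* at -0.14 (-0.48 to 0.20), and *Tapbp* at 0.17 (0.08 to 0.26). In this library the ratio of *B2m* to *H2-K1* RPKM was 18.7 (16.2 to 21.6), against 1.12 to 5.20 in the other 13 libraries. Likewise *H2-K1* was 0.425 (0.361 to 0.499) times *H2-D1*, against 0.724 to 1.36 elsewhere, and *Tap1* was 4.43 times *Tap2*, against 1.22 to 2.31 elsewhere. *Cd14*, at 7.97 RPKM here and 2.47 RPKM in Ctrl cells, was the one leukocyte marker at RPKM of at least 1 in this pair, and its part in these values was not tested.

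At D2 fewer of the 10 genes passed 2-fold, 1 in each direction. *H2-Q6* was over 2-fold higher in KD cells, with 150 reads against 67 and a log2 ratio of 1.35 (0.93 to 1.79), where 12% of all genes were higher. *Tapbp* was over 2-fold lower, at -1.44 (-1.59 to -1.30), where 18.5% of all genes were lower. *Tap2*, at 2.66 RPKM against 5.32 RPKM, lay just inside 2-fold and was not counted. *H2-T23* was at 0.73 (0.30 to 1.17), *Psmb9* at 0.14 (-0.62 to 0.90), *H2-K1* at -0.40, *H2-D1* at -0.52, and *B2m* at -0.69. The *H2-Q6* ratio of KD to Ctrl cells thus had opposite signs at D0 and D2. At D2 the brown adipocyte markers summed to 1402 and 57.1 RPKM in Ctrl and KD cells, and the preadipocyte markers to 143.9 and 53.3 RPKM. In the preadipocyte sum *Col1a1* was at 89.9 and 13.7 RPKM. *Dlk1*, at 3.51 and 27.9 RPKM, was the only gene of that list higher in KD cells. The part of these markers in the class I values was not tested. The Ctrl libraries themselves differed from the WT libraries of the same day, which came from another experiment and carried a different virus. *H2-K2*, which shares 50-base windows with *H2-K1*, also differed between these experiments. At D0 it had 49 reads in WT and 160 in Ctrl cells, beside 6503 and 1533 reads of *H2-K1*. The part of such a difference between experiments in the ratios of Ctrl to WT cells was not tested. At D0, 7 of the 10 genes were over 2-fold lower in Ctrl than in WT cells (23% of all genes were, and 12% were higher), with a median log2 ratio of -1.40. At D2, 4 were higher (12.2% of all genes were), *H2-Q6* among them at 1.99 (1.19 to 2.88), and *B2m* was lower at -1.01 (15.6% of all genes were lower). After rescaling by the median ratio, *B2m* at D2 and *Psmb8* at D0 lay inside 2-fold.

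Within the heavy chains, *H2-K1* and *H2-D1* supplied between 80.8% and 99.2% of the summed RPKM of the 4 genes in each library, a sum that ran from 31.0 RPKM in KD cells at D0 to 1311 RPKM in K36M cells at D7. *H2-Q6* made up 1.16%, 0.33%, and 3.2% of the sum in WT cells at D0, D2, and D7, and 6.25%, 4%, and 8.25% in K36M cells. Its share was 0.606% and 0.285% in PPARγ WT cells with DMSO and Rosi, and 1.47% and 5.14% in PPARγ K36M cells. It was 0.734% and 1.54% in Ctrl cells and 0.378% and 5.11% in KD cells. The transcript model of *H2-Q6* covers the coding sequence only, so a level per length compares a coding model with models that include UTRs.

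The neighbouring *H2-Q* genes were read beside *H2-Q6* because of the shared sequence. At D2 *H2-Q7* was at 0.415 RPKM in WT and 7.04 RPKM in K36M cells, *H2-Q8* at 0.398 and 4.45 RPKM, and *H2-Q4* at 8.82 and 29.7 RPKM, all over 2-fold higher in K36M cells. In Ctrl and KD cells at D2 *H2-Q7* was at 1.18 and 3.69 RPKM, *H2-Q8* at 1.85 and 4.64 RPKM, and *H2-Q4* at 13.8 and 13.3 RPKM. *H2-Q7* and *H2-Q8* thus moved in the same direction as *H2-Q6* in both pairs. Reads from the sequence they share with *H2-Q6* cannot be assigned to 1 gene with the deposited values. The ratio of *H2-Q7* to *H2-Q6* RPKM was 0.487 (0.19 to 1.17) in WT and 0.455 (0.354 to 0.583) in K36M cells at D2, which differ by less than counting error. It was 0.598 (0.431 to 0.824) in WT and 0.347 (0.302 to 0.397) in K36M cells at D0, with intervals that do not overlap.

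The immunoproteasome subunits were also set against the constitutive subunits they replace. *Psmb8* RPKM was 37.2%, 1.78%, and 48.0% of *Psmb5* RPKM in WT cells at D0, D2, and D7, and 20.7%, 7.98%, and 123% in K36M cells. In K36M cells at D7 *Psmb8* therefore exceeded *Psmb5*, with an interval of 109% to 139%, and this was the one library in which it did. *Psmb9* was 10.0%, 0.827%, and 42.4% of *Psmb6* in WT cells, against 4.68%, 7.54%, and 59.2% in the K36M libraries. In KD cells at D0 the same shares were 0.863% for *Psmb8* and 0.966% for *Psmb9*, against 12.8% and 6.66% in Ctrl cells. *Psmb10*, which encodes the third immunoproteasome catalytic subunit and replaces that of *Psmb7*, ran from 1.84% of *Psmb7* in KD cells at D2 to 52.7% in K36M cells at D7.

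**Figure D4:**
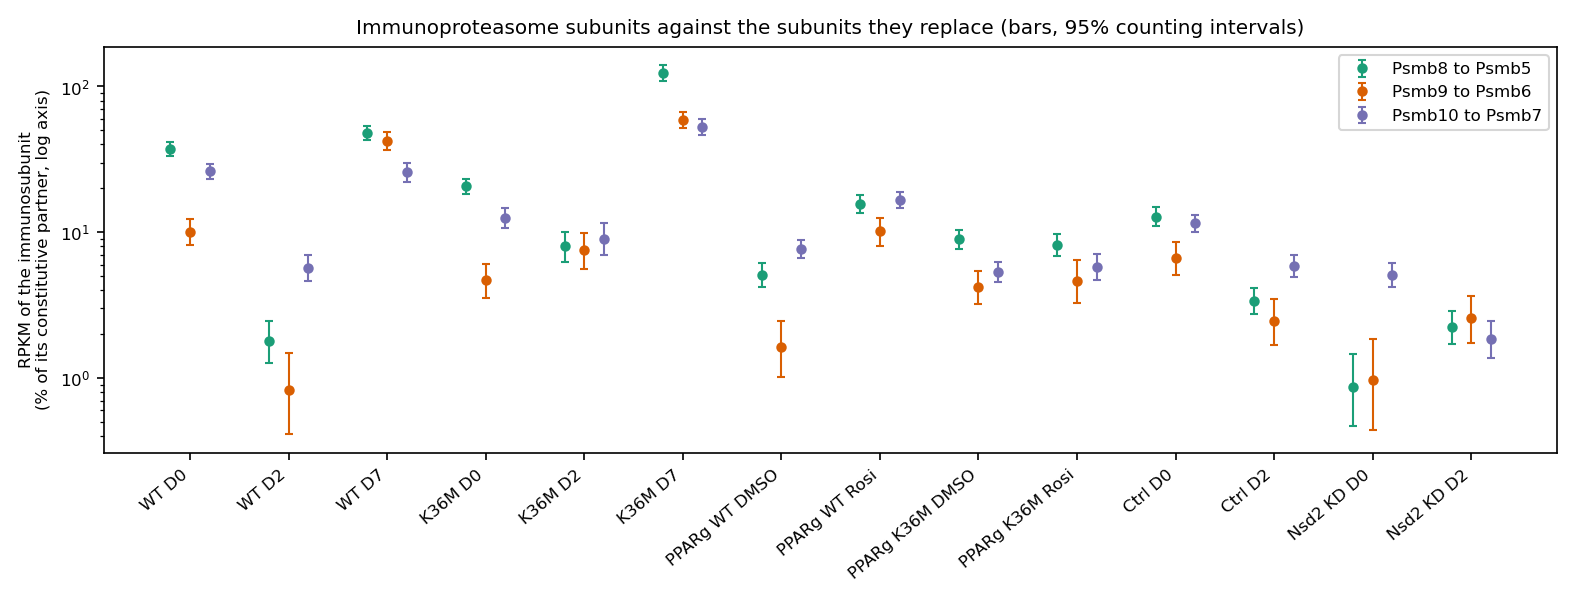
RPKM of *Psmb8*, *Psmb9*, and *Psmb10* as a percentage of the RPKM of *Psmb5*, *Psmb6*, and *Psmb7* in each of the 14 libraries, on a log axis; points are 1 library each and bars are 95% counting intervals. All 3 are highest in K36M cells at D7, at 123%, 59.2%, and 52.7%, and the *Psmb8* share is lowest in KD cells at D0, at 0.863%.

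Further genes of the pathway were read from lists of other heavy chains, peptide loading, proteasome, regulators, class II, and interferon-stimulated genes, counting those with RPKM of at least 1 in either library and *H2-Q7* and *H2-Q9* once. A gene below that level in 1 library entered the count only through the other, where it was higher, so the counts lean toward that direction. In K36M against WT cells at D2, 13 of 14 interferon-stimulated genes were over 2-fold higher, with a median log2 ratio of 2.20, where 11.2% of all genes above that level were higher and 4.37% lower. *Isg15*, a ubiquitin-like protein, was at 4.43 RPKM in WT and 19.2 RPKM in K36M cells, and *Ifit1*, which binds foreign RNA, at 0.933 and 11.4 RPKM. Most of these 14 genes, like *Ifit1*, reached RPKM of 1 only in the K36M library of this pair, whereas others, like *Isg15*, reached it in both. Among 26 regulators 5 were higher and none lower, including *Nlrc5*, the class I transactivator, at 1.36 and 6.48 RPKM, and *Irf7* at 0.830 and 3.84 RPKM. *Irf7* too reached RPKM of 1 only in the K36M library. Of 10 other heavy chain genes 6 were higher and 1 lower, the latter being *Cd1d1*, which presents lipids, at 6.59 and 0.953 RPKM. The loading list had 1 of 9 higher and the proteasome list 1 of 19 higher (*Psme1*, a subunit of the activator PA28, at 9.70 and 25.4 RPKM) and 1 lower. *Calr*, *Canx*, and *Pdia3*, the chaperones of the loading complex, were at 264 and 198 RPKM, 108.5 and 87.1 RPKM, and 104 and 127 RPKM. Of 3 class II genes at that level 2 were higher, *Cd74* at 0.300 and 2.54 RPKM and *H2-DMb1* at 0.326 and 3.36 RPKM. Both reached that level only in the K36M library of this pair. The class II transactivator *Ciita* stayed at or below 0.188 RPKM in every library.

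The interferon-stimulated genes did not follow *H2-Q6* in every comparison. In K36M against WT cells at D0 none of 18 was over 2-fold higher and 6 were lower (5.02% and 6.36% of all genes at that level), while *H2-Q6* was higher. In KD against Ctrl cells at D2 none of 16 was higher and 12 were lower, with a median log2 ratio of -1.52 (4.88% and 9.57% of all genes), while *H2-Q6*, *H2-Q8*, and the reads shared by *H2-Q7* and *H2-Q9* were over 2-fold higher. At D2 *Isg15* was at 19.0 and 4.49 RPKM in Ctrl and KD cells. At D0, 17 of 18 were lower in KD cells, with a median of -4.18 (10.8% of all genes were lower and 6.61% higher), alongside 6 of the 10 class I genes. From D0 to D2 in WT cells all 18 fell, with a median of -6.05 (17.3% of all genes fell and 9.38% rose), and from D2 to D7 all 18 rose, with a median of 6.32 (15.7% rose and 5.08% fell). *Irf7* in WT cells was at 44.3, 0.830, and 69.3 RPKM on the 3 days, and *Nlrc5* at 9.74, 1.36, and 10.8 RPKM. With Rosi 17 of 18 rose in WT cells (9.96% of all genes rose and 5.05% fell) and 13 of 17 in K36M cells (7.9% rose and 8.85% fell), with medians of 2.78 and 1.70. The interferon genes *Ifnb1* and *Ifng* were at or below 0.193 and 0.131 RPKM in every library, near or below the level of 3 reads.

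The same lists were counted in the remaining pairs of libraries. From D0 to D2 in K36M cells 15 of 17 interferon-stimulated genes fell and none rose (11.2% of all genes fell and 10.2% rose), and from D2 to D7 all 18 rose along with 10 of 12 other heavy chain genes (15.7% rose and 7.02% fell). In Ctrl cells 14 of 18 interferon-stimulated genes fell from D0 to D2 (16.1% fell and 11.3% rose), whereas in KD cells 3 of 11 rose and 2 fell (11.8% rose and 16.8% fell) and 4 of 9 other heavy chain genes rose. At D7, 5 of 18 interferon-stimulated genes and 3 of 12 other heavy chain genes were higher in K36M cells (11.7% of all genes were higher and 8.46% lower). With PPARγ and DMSO 2 of 15 interferon-stimulated genes, 3 of 9 other heavy chain genes, and 4 of 5 class II genes were higher in K36M cells (5.09% were higher and 3.11% lower). Of these class II genes, *H2-Ab1*, *H2-Eb1*, and *Cd74* reached RPKM of 1 only in the K36M library of this pair. With PPARγ and Rosi none of 18 interferon-stimulated genes was higher and 6 were lower, while 4 of 12 other heavy chain genes were higher and 4 lower (7.02% of all genes were higher and 12.1% lower). In Ctrl against WT cells 17 of 18 interferon-stimulated genes were lower at D0 (15.1% of all genes were lower and 7.1% higher), and 13 of 16 were higher at D2 (4.82% were higher and 6.42% lower). Most of these 16 reached RPKM of 1 only in the Ctrl library at D2.

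Across the 14 libraries, the mean of the 10 genes' centred log2(RPKM + 1) ran from -1.82 in KD cells at D0 to 2.49 in K36M cells at D7. Among 8523 other genes with a mean RPKM of at least 5, those most like this mean by Pearson correlation were *Trim30a* (0.955), *Mitd1* (0.953), *H2-Q4* (0.947), *Sp100* (0.942), and *Trim25* (0.942). Within the list, *Psmb8* was most like the mean of the others (0.94) and *H2-Q6* least (0.75). The most alike pair was *H2-K1* and *H2-D1* (0.988), which share some 50-base windows, and the least alike was *H2-Q6* and *Tapbp* (0.508). The 14 points are not independent, since they come from 3 experiments on one kind of cell and share the swing between days.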

How the data were processed

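RNA-Seq was measured in 14 libraries with 1 library per condition. Per the study's methods, mRNA was purified with Dynabeads, and NEBNext Ultra II libraries were sequenced on an Illumina HiSeq. The authors deposited RPKM for 29082 RefSeq transcripts per library. The submitters' processing notes name CASAVA 1.8.2 and mm9. The mapper and counter, and the treatment of reads that match several places, are not given in the sources used here. ChIP-Seq was not analysed here.

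Symbols from RefSeq's gene annotation were found for 28436 transcripts (97.8%), which gave 23109 genes. GENCODE M1 gave the gene coordinates and the transcript sequences. Whole reads were recovered from the steps between RPKM values for all 26946 transcripts above 0 in at least 2 libraries (100%). Genes with RPKM above 0 in either library were called at a ratio over 2-fold. For intervals, the reads of a library were taken as a share of those of the pair, with 95% Clopper-Pearson bounds rescaled by the totals. In simulated data for K36M against WT at D2 (12056 genes, 200 changed) 95.2% covered the truth. The reads were drawn with counting error alone, which the intervals assume, so this checks the calculation only. Genes with as few reads in WT cells at D2 as *H2-Q6* (16) and *Psmb9* (11) were left out of it.

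The genes and lists were chosen with earlier results of these data known. The named genes are the 10 members, up to 4 genes a list over 2-fold at D2 in K36M against WT or KD against Ctrl cells, with *Calr*, *Canx*, *Pdia3*, *Ciita*, *Ifnb1*, *Ifng*, and the *H2-Q* genes added after their values were seen, and the 5 genes most like the members. Alternatives were a filter on RPKM above 0 in both libraries, a minimum RPKM of 1, pseudocounts of 0.1 and 1, rescaling by the median ratio, summed transcripts, intervals that exclude 1, and windows of 36 and 100 bases. Python 3.11.15 with numpy 2.4.6, pandas 2.3.3, scipy 1.17.1, and matplotlib 3.10.9 was used.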

Additional observations from a re-analysis of the deposited data

Results flagged for a closer look

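Each of 200 pairs of the same contrast in 2 kinds of cells or on 2 days was examined for genes over 2-fold in opposite directions with both counting intervals excluding no difference, and 14 were found. With 1 library per condition, none of these differences was tested. The 14 are not independent, since they share libraries, among them WT cells at D2 and KD cells at D0. *H2-Q6*, on which the set was partly selected, recurs among them. Values are the second log2 ratio minus the first.

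From D0 to D2, *H2-Q6* fell in WT cells and rose in Ctrl and in KD cells, and the differences were 4.39 for Ctrl and 8.65 for KD cells. Against K36M cells, where it also fell, the differences were 3.27 for Ctrl and 7.53 for KD cells. The KD values rest on 2 reads at D0. *Psmb8* fell in WT, K36M, and Ctrl cells and rose in KD cells, with differences of 5.65, 3.61, and 3.23. *Psmb9* fell in WT and Ctrl cells and rose in KD cells, with differences of 4.81 and 2.82. With a pseudocount of 1, the ratios of *Psmb8* in Ctrl cells and of *Psmb9* in Ctrl and KD cells lay inside 2-fold.

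*H2-T23* was higher in K36M than in WT cells at D2 and lower with PPARγ and Rosi, a difference of -4.14, although the second ratio lay inside 2-fold, at -0.93, after rescaling or with a pseudocount of 1. *H2-Q6* was lower in KD than in Ctrl cells at D0 and higher at D2, a difference of 4.26. Its D0 ratio lay inside 2-fold with a pseudocount of 1. In Ctrl against WT cells, 3 genes were lower at D0 and higher at D2, with differences of 4.39 for *H2-Q6*, 2.82 for *H2-T23*, and 2.42 for *Psmb8*. That of *H2-Q6* is its D0 to D2 difference between WT and Ctrl cells counted again, from the same libraries. With a pseudocount of 1, the D2 ratios of *H2-T23* and *Psmb8* lay inside 2-fold, as did the D0 ratio of *Psmb8* after rescaling.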

How the results depend on the processing

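No log2 ratio of the 10 genes that was over 2-fold changed direction under rescaling, a pseudocount of 1, or summed transcripts. Of 510 ratios recomputed, 460 moved by less than counting error and 50 moved by more, 29 of them under rescaling and 21 under the pseudocount of 1, and 4 ratios of at most 0.08 in size changed sign under rescaling, that of *H2-D1* for K36M against WT cells at D7 and those of *Tap2* in 3 comparisons. Of 119 counts of genes over 2-fold recomputed, 113 stayed within 1.5 times the reported count. The others, for genes in either direction, were 2 in place of 1 for Rosi against DMSO in K36M cells under rescaling, where *H2-K1* was added, and, with a pseudocount of 1, 1 in place of 2 for K36M against WT cells with PPARγ and DMSO, 4 in place of 7 for D2 against D0 in Ctrl cells, and 2 in place of 5 for Ctrl against WT cells at D2. For K36M against WT cells with PPARγ and Rosi the count was 1 in place of 2 both under rescaling and with the pseudocount of 1, the lost gene being *H2-T23*. The share of *H2-Q6* windows found in other genes was 48.1% at 36 bases and 19.3% at 100 bases, in place of 36.8%. No paired analysis was possible because each condition had 1 library. Depth limits *H2-Q6* most, with 2 reads in KD cells at D0 and 13 in PPARγ WT cells with Rosi.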

Other observations

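*H2-K2*, listed under a non-coding RefSeq transcript (NR_004446), had reads in all 14 libraries. It had 49, 6, and 47 reads in WT cells at D0, D2, and D7 and 42, 10, and 77 reads in K36M cells, where *H2-K1* had 6503, 4338, and 11350 reads and 10098, 4278, and 12572 reads. With ectopic PPARγ it had 202 and 278 reads in WT cells with DMSO and Rosi and 321 and 301 reads in K36M cells, beside 2694, 3478, 4640, and 4793 reads of *H2-K1*. In Ctrl cells it had 160 and 199 reads at D0 and D2 and in KD cells 43 and 166 reads, beside 1533, 3558, 214, and 2359 reads of *H2-K1*. Each of the 8 libraries of the PPARγ and shRNA experiments had more *H2-K2* reads per *H2-K1* read than any of the 6 libraries of the first experiment.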
